A study of Mus musculus with 15 samples.

Results

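The mitogen-activated protein kinase (MAPK) phosphatases of the dual specificity (DUSP) family and the Sprouty and Spred proteins that restrain Ras and RAF were followed at the mRNA level in mouse CD8+ T cells. The set was fixed by name as 10 genes, of which 6 were DUSP genes (Dusp1, Dusp2, Dusp4, Dusp5, Dusp6 and Dusp10) and 4 were Sprouty or Spred genes (Spry1, Spry2, Spred1 and Spred2). A first table of 11262 mRNA listed 9 of the 10, all but Spry2, and a table of 11211 mRNA in cytotoxic T cells (CTL) listed all 10. The rule for membership is a list of names and uses no measured value, although the list was written with earlier results of these data known.

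All 15 libraries came from P14 mice, which carry a transgenic TCR that recognises the LCMV peptide gp33–41. In the first table, lymph node cells of 3 mice were pooled for each of 3 replicates and each pool was split between 3 groups, the mice being females aged 9 to 13 weeks by the study's methods. Naïve CD8+ T cells were sorted ex vivo as CD62L high and CD44 low cells. TCR activated cells received the gp33–41 peptide at 100 ng/ml for 24 h, together with the cytokines IL-2 at 20 ng/ml and IL-12 at 2 ng/ml, and were sorted as live CD8+ cells, and PI3Kdi cells were activated in the same way with 10 µM of IC87114, a selective inhibitor of the p110δ catalytic subunit of PI3K, with DMSO as the vehicle control. For the second table, P14 cells were activated for 48 h, grown for 4 days in 20 ng/ml IL-2 to become CTL, washed, and kept for 24 h with 20 ng/ml IL-2 or without IL-2, with 3 replicates of each and no age, sex or pooling given. Both groups activated for 24 h received IL-2 and IL-12, so neither isolates the TCR from cytokine, and the inhibitor was present together with antigen rather than added to CTL.

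TCR ligation activates Ras, which drives the kinases RAF, MEK and ERK in turn, while parallel cascades drive the kinases JNK and p38. Phosphorylated ERK, JNK and p38 are switched off by DUSP enzymes, several of which are themselves products of MAPK induced genes, so that the cascades feed back on their own activity. Sprouty and Spred proteins act further up, on the steps between receptors, Ras and RAF, and Spred proteins bring the Ras inactivator neurofibromin to the membrane. In T cells such inhibitors are known to help set the strength and length of a MAPK signal.

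The members lie on separate loci. By RefSeq on GRCm38.p6, the build known as mm10, Dusp1 (Entrez 19252) spans chr17:26505591-26508472, Dusp2 (Entrez 13537) chr2:127336159-127338377, Dusp4 (Entrez 319520) chr8:34807610-34819894, Dusp5 (Entrez 240672) chr19:53529145-53541809 and Dusp6 (Entrez 67603) chr10:99263231-99267489. Dusp10 (Entrez 63953) spans chr1:184034381-184075636, Spry1 (Entrez 24063) chr3:37639947-37644599, Spry2 (Entrez 24064) chr14:105891947-105896819, Spred1 (Entrez 114715) chr2:117121071-117182279 and Spred2 (Entrez 114716) chr11:19924442-20024026. In GENCODE M21, a model on the opposite strand overlaps Dusp5 (AC137853.2) and another overlaps Spry1 (Gm42922). The library kit kept strand, and whether the counting used it is not stated, so a share of those 2 values could come from the other strand.

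The RefSeq promoter windows, 250 bases before to 50 bases after the start of each gene, were at hand for 9 of the 10 members, all but Dusp4. They were searched on both strands for letter motifs of factors that act at the end of MAPK, cyclic AMP, MYC, IL-2 and FOXO signalling. The 3 windows that held a match are shown because their genes behaved differently from each other in the comparisons that follow. Capitals mark the matches, which are a cAMP response element and then an E-box in Dusp1 (chr17:26508423-26508722, minus strand), an E-box and then an EGR site in Dusp2 (chr2:127335909-127336208, plus strand), and a pair of adjoining CArG boxes, the site bound by serum response factor, in Dusp5 (chr19:53528895-53529194, plus strand).
Dusp1: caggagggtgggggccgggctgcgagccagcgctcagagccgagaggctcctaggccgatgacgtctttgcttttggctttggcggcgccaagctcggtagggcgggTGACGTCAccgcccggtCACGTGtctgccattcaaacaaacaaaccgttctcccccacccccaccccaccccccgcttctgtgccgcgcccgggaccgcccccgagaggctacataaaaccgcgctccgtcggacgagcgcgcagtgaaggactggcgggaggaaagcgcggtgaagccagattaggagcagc
Dusp2: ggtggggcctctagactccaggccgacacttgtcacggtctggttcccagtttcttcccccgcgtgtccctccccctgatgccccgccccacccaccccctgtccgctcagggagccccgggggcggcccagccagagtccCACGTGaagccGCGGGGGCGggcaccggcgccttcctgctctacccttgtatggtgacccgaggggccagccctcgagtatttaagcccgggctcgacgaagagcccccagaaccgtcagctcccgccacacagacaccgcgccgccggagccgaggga
Dusp5: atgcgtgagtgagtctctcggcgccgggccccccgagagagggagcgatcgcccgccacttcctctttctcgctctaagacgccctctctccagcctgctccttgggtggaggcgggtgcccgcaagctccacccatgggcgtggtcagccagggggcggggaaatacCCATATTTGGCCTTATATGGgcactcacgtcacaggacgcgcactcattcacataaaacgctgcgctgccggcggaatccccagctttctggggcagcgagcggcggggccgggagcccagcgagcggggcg

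The cAMP response element TGACGTCA of Dusp1 began at position -143 from the gene start, and 1.79% of all 32851 promoter windows held these letters. The E-box CACGTG, found in Dusp1 and Dusp2, was in 7.15% of all windows, and the EGR site GCGGGGGCG of Dusp2 was in 2.91%. The CArG boxes of Dusp5 began at positions -82 and -72, and 1.63% of all windows held at least 1. None of the 9 windows held the AP-1 site TGANTCA, the ETS site CCGGAAGT, the STAT5 site TTCNNNGAA or the FOXO site GTAAACA, which were in 7.81%, 3.89%, 8.3% and 3.65% of all windows. The TATA box letters TATAAA were in 13.6% of all windows and in none of the 9. The 9 windows had a median GC content of 64.3%, against 52.7% in all windows. Shares in windows of like GC content were not counted, so the absences are no result. These are matches of letters, not measured sites.

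Levels are given as FPKM, which are reads scaled for library size and gene length, and may be compared between genes. Changes are fitted log2 fold changes of FPKM + 0.1, and an mRNA is said to rise or fall where limma gave a Benjamini-Hochberg adjusted p under 0.05, over all mRNA of its table, together with a fold change above 2 or below 0.5. In these bulk samples, fewer cells that express a gene and less RNA per cell cannot be told apart. Within a group, log2 values of replicate libraries had a Pearson r across mRNA of 0.983 to 0.995. All 5 CD8 T cell markers (Cd8a, Cd8b1, Cd3d, Cd3e and Cd3g) were present, with summed levels of 3189 to 3482 FPKM in naïve, 637 to 685 in TCR activated and 811 to 953 in PI3Kdi libraries, 971 to 1042 in CTL with IL-2 and 1876 to 2069 in CTL without it. The B cell marker Cd79b was at 20.3 ± 1.24 FPKM in naïve, 3.02 ± 0.451 in TCR activated and 3.29 ± 0.490 in PI3Kdi cells (SD, n = 3), and at 2.74 to 6.30 FPKM in CTL with IL-2 and 10.8 to 20.6 without. The single listed macrophage or monocyte marker of 5, Itgam, was at 0.39 FPKM or less in all groups but CTL without IL-2, where it was at 3.89 to 4.46, and Lyz2, Csf1r, Adgre1 and Cd14 were not listed. Of the CD4 T cell markers, Cd4 was listed in CTL alone, at 0.05 to 0.39 FPKM with IL-2 and 0.92 to 1.92 without, and the NK cell marker Klrb1c was at 1.65 ± 0.390 and 2.74 ± 0.625 FPKM (SD, n = 3). Markers of erythroid cells and stroma were not listed in either table. The part of other cells in the results below was not tested.

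**Figure D1:**
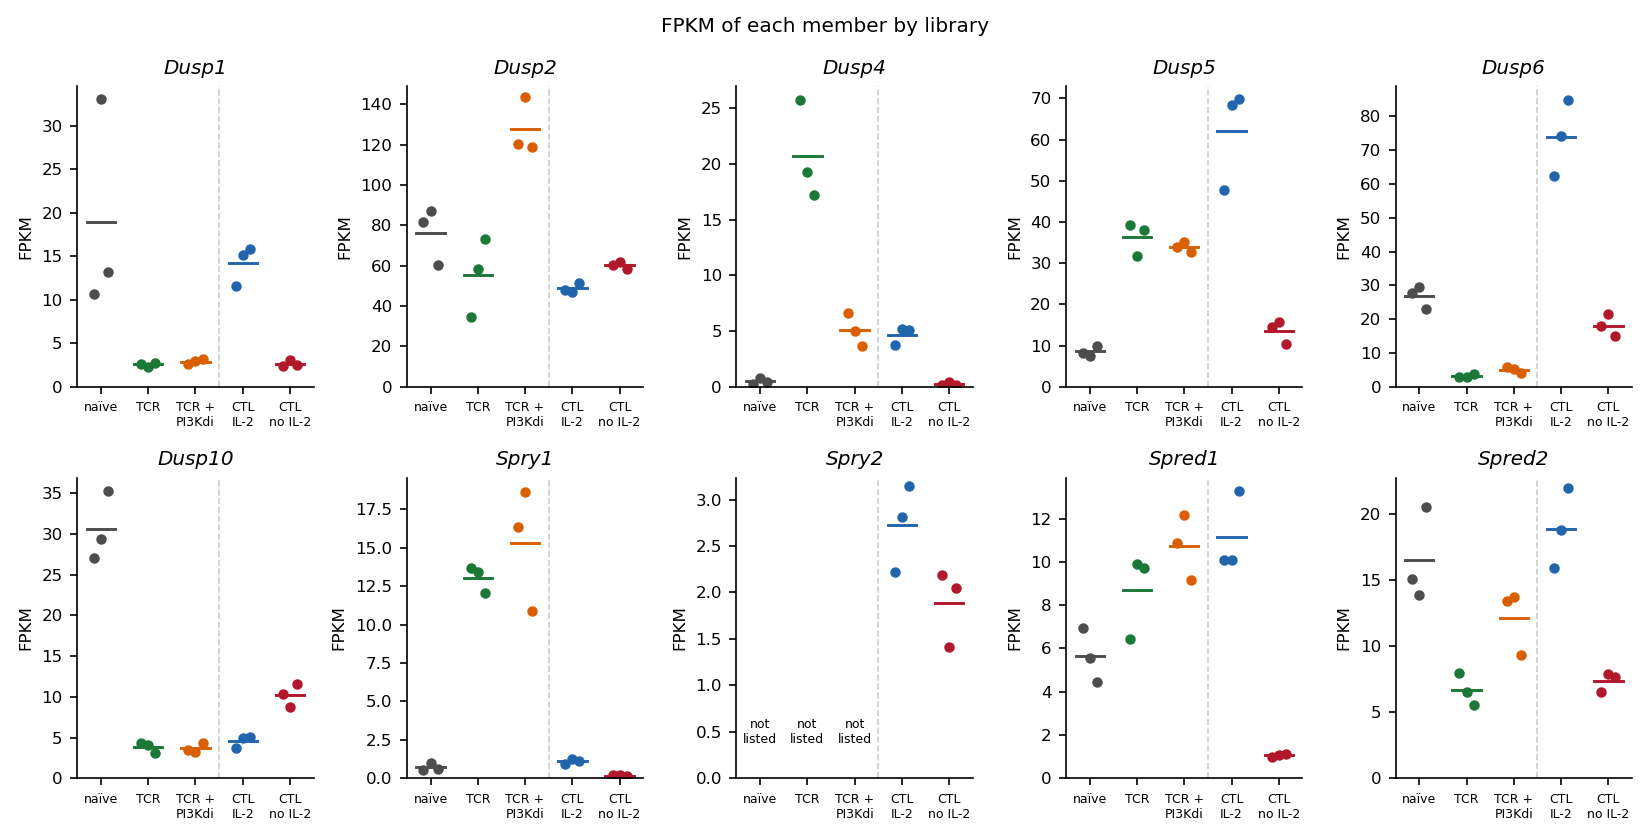
FPKM of each of the 10 mRNA in the 15 libraries, 1 point per library and a bar at the mean of 3, on linear axes that start at 0 and differ between panels. The dashed line parts the 2 tables, which were normalised separately. Dusp4 stood at 17.2 to 25.7 FPKM in TCR activated cells and at 6.62 or less in every other library, and Spry1 was above 10 FPKM only in the 6 libraries activated for 24 h.

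What does 24 h of TCR activation do to the inhibitors? Of the 9 mRNA listed, 3 rose (Dusp4, Dusp5 and Spry1), 4 fell (Dusp1, Dusp6, Dusp10 and Spred2) and 2 did neither (Dusp2 and Spred1). Among all mRNA, 25.0% rose and 23.7% fell in this comparison, so that a call in either direction was common. The median log2 fold change was -0.52 over the 9 and 0.00544 over all mRNA, with single values from -3.03 to 5.25.

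Dusp4, a nuclear phosphatase of ERK and JNK, was at 0.25, 0.80 and 0.40 FPKM in the naïve libraries and at 25.7, 19.2 and 17.2 in the TCR activated libraries. Every activated library was above every naïve one, with a log2 fold change of 5.25 (95% interval 4.54 to 5.96) in limma (adjusted p = 4.1e-08). Spry1, which holds back receptor driven Ras signalling, went from 0.56, 0.99 and 0.59 FPKM in naïve cells to 13.66, 13.44 and 12.03 after activation. Its log2 fold change was 4.05 (3.55 to 4.55) and the groups did not overlap (limma, adjusted p = 1.9e-08). Both mRNA were under 1 FPKM in naïve cells, where the pseudocount weighs on the fold. With a pseudocount of 1 the log2 fold changes were 3.87 for Dusp4 and 3.04 for Spry1. Dusp5, a nuclear phosphatase that acts on ERK, had 8.27, 7.50 and 9.97 FPKM in naïve and 39.2, 31.8 and 38.1 FPKM in TCR activated cells. It rose by 2.07 on the log2 scale (1.81 to 2.34), about the same in each replicate (limma, adjusted p = 2.2e-08).

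Dusp6, the cytoplasmic phosphatase of ERK, was at 27.7, 29.6 and 23.0 FPKM in naïve cells and at 2.86, 3.04 and 3.68 FPKM after activation. Its log2 fold change of -3.03 (-3.39 to -2.67) was the lowest of the 9 (limma, adjusted p = 1.5e-08). Dusp10, which prefers JNK and p38, fell from 27.1, 29.5 and 35.3 FPKM to 4.32, 4.12 and 3.14 FPKM, a log2 fold change of -2.96 (-3.32 to -2.60). For neither mRNA did the groups overlap. Dusp1, an immediate early gene whose product acts on p38, JNK and ERK, had 10.7, 33.1 and 13.2 FPKM in the naïve libraries and 2.67, 2.26 and 2.78 FPKM in the activated ones. The log2 fold change was -2.66 (-3.38 to -1.94; limma, adjusted p = 1.5e-05). The second naïve library stood well above the other 2 for Dusp1, and it also had the most Fos (170 FPKM against 52.5 and 37.0) and the most Jun (74.3 against 24.6 and 22.6), early genes that cell handling can induce. Fosb (7.12 against 1.18 and 1.02) and Junb (220 against 112 and 139) were also highest there. The early gene Egr1 went the other way, being lowest in that library (21.0 FPKM against 31.6 and 26.6). Without replicate 2 of every group the fall in Dusp1 was -2.09 (adjusted p = 4.5e-05), and the part of handling was not tested.

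Spred2 had 15.1, 13.9 and 20.5 FPKM in naïve and 7.96, 6.54 and 5.59 FPKM in TCR activated cells, with no overlap. It fell by 1.28 on the log2 scale (limma, adjusted p = 7.9e-05), and without replicate 3 its value of -0.995 no longer passed the fold limit. Spred1 had 6.94, 5.56 and 4.47 FPKM in naïve and 6.44, 9.90 and 9.73 FPKM in activated cells. The first activated library lay inside the naïve range, and the log2 fold change of 0.61 passed the p threshold (0.016) but not the fold limit. It was 0.96 without replicate 1, 0.50 without replicate 2 (adjusted p = 0.13) and 0.36 without replicate 3 (adjusted p = 0.16). Dusp2, the nuclear phosphatase first found in activated T cells, was at 81.5, 87.0 and 60.4 FPKM in naïve and at 34.4, 58.1 and 73.0 FPKM in TCR activated cells. The groups overlapped, and the interval of the log2 fold change of -0.52 ran from -1.03 to -0.00319 (adjusted p = 0.060). Across groups the spread between libraries was largest for Dusp1 in naïve cells (coefficient of variation 64.5%) and smallest for Dusp2 in CTL without IL-2 (3.10%).

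**Figure D2:**
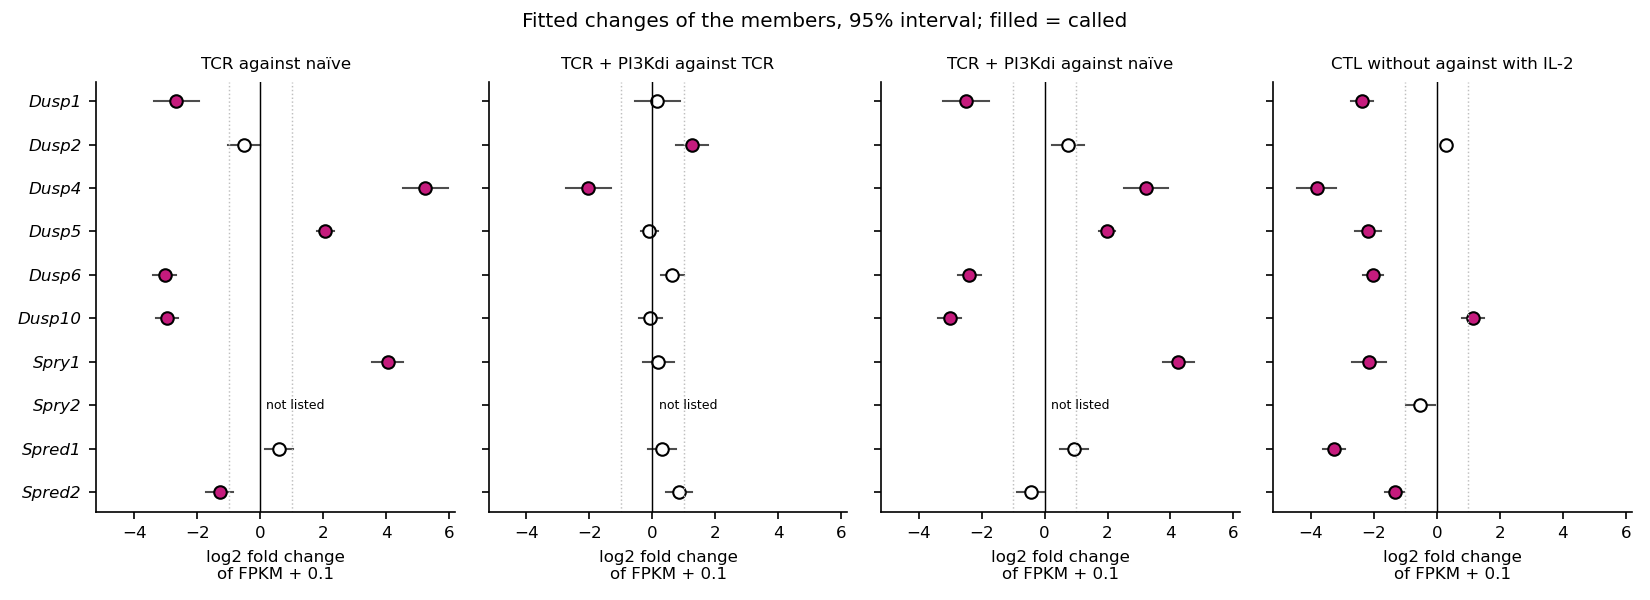
Fitted log2 fold change of FPKM + 0.1 (point) with its 95% interval (line) for each mRNA in the 4 comparisons, filled where it rose or fell by the limits above and with dotted lines at a 2-fold change. After TCR activation 7 of 9 points are filled, for PI3Kdi against TCR 2 of 9, for PI3Kdi against naïve 6 of 9, and for CTL without against with IL-2 8 of 10.

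What does inhibiting p110δ during activation do? Of the 9 mRNA, Dusp2 rose and Dusp4 fell, while 7 did neither. In this comparison 3.04% of all mRNA rose and 2.10% fell. The median log2 fold change of the 9 was 0.20, against -0.0076 for all mRNA.

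Dusp4 was at 6.62, 5.0 and 3.62 FPKM in the PI3Kdi libraries, all below the lowest TCR activated library at 17.2. The log2 fold change was -2.03 (-2.74 to -1.32; limma, adjusted p = 0.0017), and in each same-numbered pair the PI3Kdi library had 0.210 to 0.260 of the TCR level. Against naïve cells, Dusp4 in PI3Kdi cells was still higher, with a log2 fold change of 3.22 (2.51 to 3.93). Dusp2 moved the other way, with 120, 144 and 119 FPKM in the PI3Kdi libraries, each above all TCR activated and all naïve libraries. Its log2 fold change against TCR activated cells was 1.27 (0.76 to 1.78; limma, adjusted p = 0.0039). The pairwise ratios of Dusp2 were 3.5, 2.47 and 1.63, and the TCR activated libraries had a coefficient of variation of 35.3%, against 10.9% with PI3Kdi. Without replicate 2 the rise of Dusp2 was 1.25 with an adjusted p of 0.079, leaving 1 call of 9.

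Dusp6 and Spred2 passed the p threshold without reaching a 2-fold change, and neither passed it without replicate 1 (adjusted p = 0.19 and 0.056 in limma) or without replicate 2 (0.24 and 0.17). Dusp6 had 5.88, 5.28 and 4.01 FPKM in PI3Kdi cells, which was above TCR activated cells by a log2 fold change of 0.64 (0.28 to 1.00; limma, adjusted p = 0.022), with no overlap of the groups. Spred2 had 13.5, 13.7 and 9.35 FPKM and a log2 fold change of 0.85 (0.42 to 1.27; adjusted p = 0.013), again with no overlap. For the mRNA encoding Dusp5, the values of 34.1, 35.2 and 32.8 FPKM lay inside the TCR activated range, and the interval of the log2 fold change was -0.35 to 0.17. Dusp10 at 3.27 to 4.33 FPKM, Dusp1 at 2.58 to 3.17, Spry1 at 10.9 to 18.6 and Spred1 at 9.14 to 12.2 overlapped their TCR activated libraries, with intervals of -0.41 to 0.30, -0.56 to 0.89, -0.30 to 0.70 and -0.13 to 0.76. The intervals of Dusp5, Dusp10, Dusp1, Spry1 and Spred1 all lay within a 2-fold change in either direction.

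Set directly against naïve cells, PI3Kdi cells had 3 mRNA higher (Dusp4, Dusp5 and Spry1) and 3 lower (Dusp1, Dusp6 and Dusp10), where 23.6% of all mRNA rose and 21.3% fell. The TCR and PI3Kdi groups share these naïve libraries, so the values stand side by side and the likeness of the lists is no result. Spry1 was at 4.25 against naïve with PI3Kdi and 4.05 without, Dusp5 at 1.98 and 2.07, Dusp10 at -3.02 and -2.96, Dusp1 at -2.50 and -2.66, and Dusp6 at -2.39 and -3.03 (log2 fold changes). Spred2, which fell after activation alone, had a log2 fold change against naïve of -0.44 with PI3Kdi (-0.86 to -0.00897; adjusted p = 0.058). Dusp2 and Spred1 were above naïve by 0.75 (adjusted p = 0.011) and 0.92 (adjusted p = 0.0013), both short of 2-fold. The group difference itself is the comparison of PI3Kdi with TCR given above.

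What does the loss of IL-2 do in CTL? Without IL-2 for 24 h, 7 of the 10 mRNA fell (Dusp1, Dusp4, Dusp5, Dusp6, Spry1, Spred1 and Spred2) and 1 rose (Dusp10). Of all mRNA listed for CTL, 13.9% fell and 14.3% rose. The median log2 fold change was -2.09 for the 10 and -0.000901 for all mRNA.

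Dusp4 was at 3.76, 5.17 and 5.11 FPKM in CTL with IL-2 and at 0.17, 0.42 and 0.17 without it, a log2 fold change of -3.82 (-4.45 to -3.19; limma, adjusted p = 2.5e-06). Spred1, which works with neurofibromin to inactivate Ras, had 10.1, 10.1 and 13.3 FPKM with IL-2 and 0.98, 1.09 and 1.12 FPKM without. Its log2 fold change was -3.26 (-3.60 to -2.92; adjusted p = 3.0e-07), which was a 9.60-fold lower level. Dusp6, the highest of the 10 in CTL with IL-2, fell from 62.4, 74.2 and 84.9 FPKM to 17.9, 21.4 and 14.9 FPKM, a log2 fold change of -2.03 (-2.36 to -1.70). Dusp5 fell from 47.8, 68.5 and 69.9 FPKM to 14.4, 15.7 and 10.5 FPKM (-2.19, interval -2.59 to -1.79). Both ERK directed phosphatases kept a clear gap between the groups. Dusp1 went from 11.6, 15.1 and 15.9 FPKM with IL-2 to 2.44, 3.03 and 2.47 without, a log2 fold change of -2.37 (-2.71 to -2.04). Spred2 went from 15.9, 18.8 and 22.0 to 6.56, 7.89 and 7.70 FPKM (-1.34, interval -1.64 to -1.03). Spry1 was low in both, at 0.95, 1.23 and 1.15 FPKM with IL-2 and 0.20, 0.20 and 0.12 without. Its log2 fold change of -2.15 (adjusted p = 3.1e-05) became -0.85 with a pseudocount of 1, short of 2-fold, and that of Dusp4 became -2.18.

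Dusp10 alone rose, with 3.71, 4.97 and 5.08 FPKM in CTL with IL-2 and 10.3, 8.82 and 11.5 FPKM without. The change was 1.14 on the log2 scale (0.80 to 1.49; limma, adjusted p = 1.2e-04), and without replicate 1 the value was 0.99, just short of the fold limit. Dusp2 was at 48.1, 47.1 and 51.4 FPKM with IL-2 and 60.3, 62.0 and 58.3 FPKM without. This difference of 0.30 on the log2 scale (0.14 to 0.46; adjusted p = 0.0043) was far under 2-fold but larger than the spread of the libraries. Spry2, listed in CTL alone, had 2.22, 2.81 and 3.15 FPKM with IL-2 and 2.19, 1.41 and 2.05 FPKM without, the lowest library with IL-2 lying just above the highest without. Its log2 fold change was -0.52 (-0.98 to -0.06; adjusted p = 0.043).

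The balance among the DUSP mRNA differed between groups. Dusp2 held 47.1% ± 5.02 of the summed FPKM of the 6 DUSP mRNA in naïve cells (SD, n = 3, here and in what follows), 44.5% ± 11.4 in TCR activated cells and 71.5% ± 1.98 in PI3Kdi cells. In CTL its share was 23.7% ± 2.96 with IL-2, where Dusp6 (35.4% ± 1.04) and Dusp5 (29.6% ± 2.48) made up most of the rest, and 57.5% ± 1.96 without IL-2. Dusp4 took 17.4% ± 5.64 of the sum in TCR activated cells but 2.85% ± 0.864 in PI3Kdi cells. The sum was 162 ± 23.2 FPKM in naïve, 122 ± 14.7 in TCR activated and 178 ± 15.0 in PI3Kdi cells, and 208 ± 28.1 and 105 ± 6.78 in CTL with and without IL-2. Shares are within a library and so do not depend on the scaling of the tables, while the sums of the 2 tables were normalised separately. These shares describe mRNA and were given no test.

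**Figure D3:**
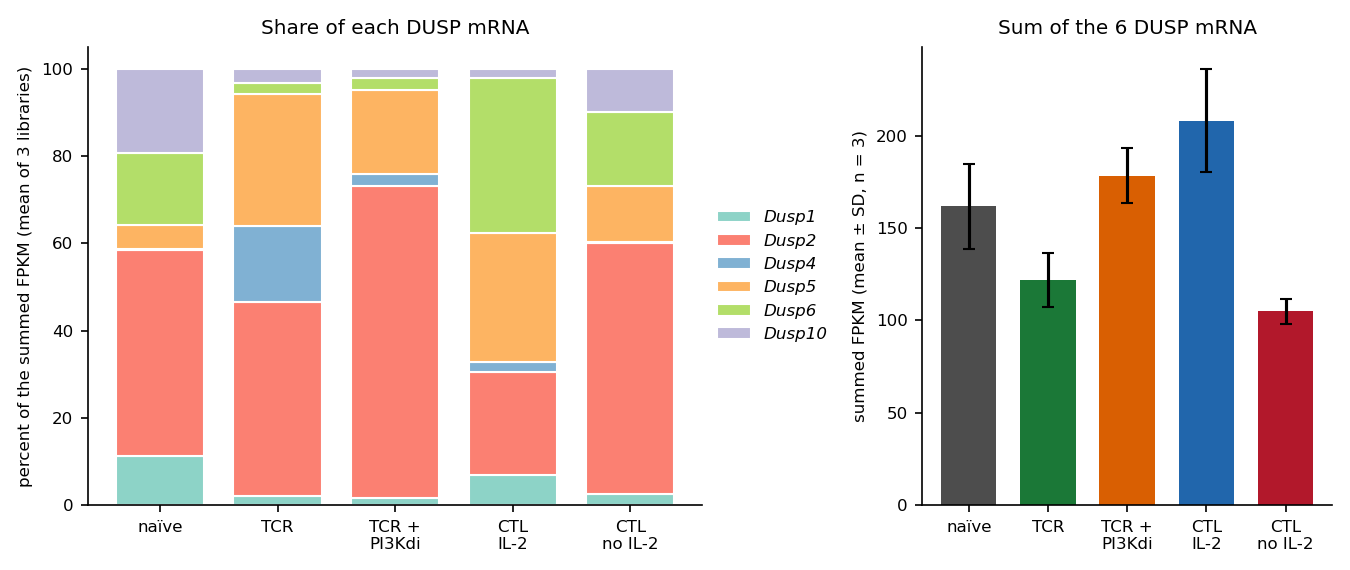
Left, the mean share of each of the 6 DUSP mRNA in their summed FPKM, as stacked bars for the 5 groups (3 libraries each). Right, the summed FPKM with SD as the error bar. Dusp2 takes 71.5% of the sum in PI3Kdi cells and 57.5% in CTL without IL-2, and 23.7% in CTL with IL-2, where Dusp6 and Dusp5 take more.

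By level, Dusp2 was the first of the 9 in naïve, TCR activated and PI3Kdi cells, although in TCR activated cells its libraries overlapped those of Dusp5 in the next place. In naïve cells Dusp10, Dusp6, Dusp1 and Spred2 followed, each overlapping the next, and Spry1 and Dusp4 were last and overlapped. In TCR activated cells the order after Dusp5 was Dusp4, Spry1, Spred1 and Spred2, of which Spred1 and Spred2 overlapped. Dusp10, Dusp6 and Dusp1 were last, of which Dusp10 and Dusp6 overlapped. In PI3Kdi cells Spry1, Spred2 and Spred1 came after Dusp5, where Spry1 overlapped Spred2 and Spred2 overlapped Spred1. Dusp4 stood beside Dusp6 there, with which it overlapped. In CTL with IL-2 the order opened with Dusp6, Dusp5 and Dusp2, with overlap from each to the next. In CTL without IL-2 Dusp2 stood apart at the top, then Dusp6, Dusp5 and Dusp10, of which each overlapped the next.

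The comparisons of PI3Kdi with TCR and of CTL without with IL-2 share no libraries, and the 9 mRNA listed in both can be placed on both. Dusp4 fell in both, with log2 fold changes of -2.03 and -3.82. Dusp2 was positive in both, at 1.27 and 0.30, and only the first reached 2-fold. Spred2 and Dusp6 had positive values with PI3Kdi (0.85 and 0.64) and fell without IL-2 (-1.34 and -2.03). Dusp5, Dusp1, Spry1 and Spred1, which overlapped with PI3Kdi, fell by 2.15 or more without IL-2. Dusp10 overlapped with PI3Kdi as well (-0.058) and rose without IL-2 (1.14). The inhibitor was given to naïve cells during priming and IL-2 was taken from differentiated CTL, so the cell state, the culture and the table differ as well as the treatment, and these cannot be told apart.

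**Figure D4:**
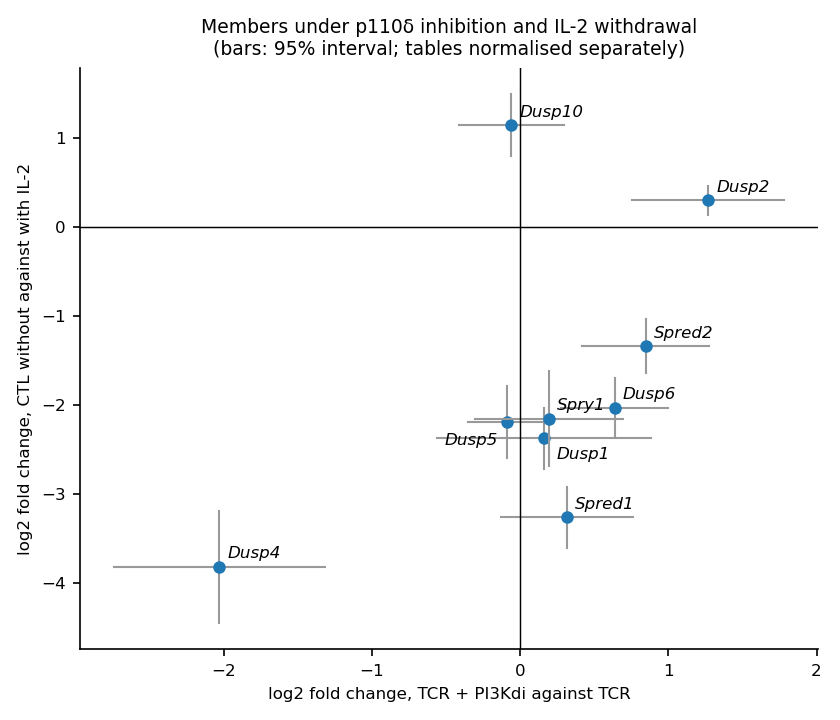
Log2 fold change of the 9 mRNA listed in both tables for PI3Kdi against TCR (x axis) and CTL without against with IL-2 (y axis), with 95% intervals as bars. Dusp4 lies at the lower left (-2.03 and -3.82), Dusp2 at the right above 0 (1.27 and 0.30), Dusp10 near 0 on the x axis and above 0 on the y axis (-0.058 and 1.14), and 6 mRNA lie between -0.09 and 0.85 on the x axis and under -1.3 on the y axis.

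The mRNA nearest to Dusp2 in the 3 log2 fold changes for TCR against naïve, PI3Kdi against TCR and CTL without against with IL-2, by root mean square difference, were Ccdc64 (0.196), Ppt1 (0.228) and Dennd2c (0.242). For Dusp4 the nearest were further off, namely Slc16a3 (0.549), Chac1 (0.561) and Lipg (0.689). Slc16a3 was itself uneven in TCR activated cells, at 81.2, 33.8 and 3.10 FPKM. These distances rest on group means of 15 libraries and on mRNA with a mean FPKM of at least 1 in both tables.

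How did the rest of the MAPK pathways move? Written lists held 120 further mRNA in the first table and 118 in the CTL table. After TCR activation 24 rose and 32 fell, with PI3Kdi against TCR 4 rose and 6 fell, with PI3Kdi against naïve 26 rose and 26 fell, and in CTL without IL-2 12 rose and 20 fell. The shares called were 46.7%, 8.33%, 43.3% and 27.1%, to be read beside the backgrounds above. Counts at an unadjusted p under 0.05 are given below where limma called none of a list. The share of all mRNA at that threshold was not counted, so these counts have no background.

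**Figure D5:**
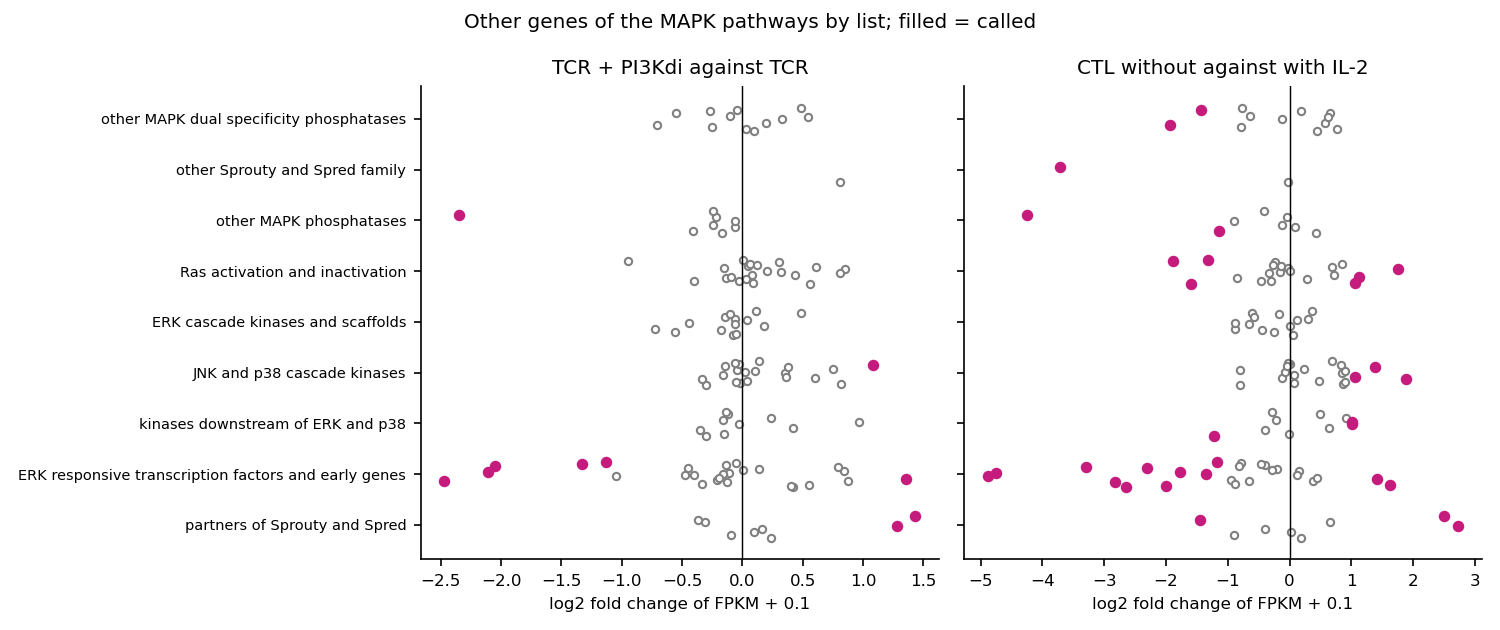
Log2 fold change of each mRNA on the 9 lists, 1 point per mRNA, for PI3Kdi against TCR (left) and CTL without against with IL-2 (right), filled where it rose or fell. The vertical scatter inside a list only separates the points. With PI3Kdi 10 of 120 points are filled, 6 of them in the list of ERK responsive transcription factors and early genes. Without IL-2 32 of 118 are filled, 12 of them in that list.

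Among 12 other dual specificity phosphatases, TCR activation raised 3 and lowered 4. Dusp14 went from 0.0167 ± 0.0289 to 1.36 ± 0.345 FPKM and Dusp16, which acts on JNK, from 0.957 ± 0.186 to 3.27 ± 0.365. With PI3Kdi against TCR 0 of these 12 were called by limma (3 at an unadjusted p under 0.05), and their median log2 fold change was -0.0072. In CTL without IL-2 Dusp14 (log2 fold change -1.93) and Dusp16 (-1.43) fell. Spry4, a further Sprouty gene, was at 1.35, 1.58 and 2.16 FPKM in CTL with IL-2 and at 0.02, 0.02 and 0.07 without, a log2 fold change of -3.71 (limma, adjusted p = 2.5e-06). In the first table it was at 0.10 to 0.51 FPKM in every library and was not called, with a value of 0.81 for PI3Kdi against TCR (adjusted p = 0.12). Spred3, listed in CTL, was at 0.34 to 0.47 FPKM and did not differ beyond the spread of its libraries. Of 8 phosphatases from other families, Ptpn5, a tyrosine phosphatase of ERK and p38, was left blank in all naïve libraries, which was read as 0, and was at 1.99 ± 0.626 FPKM in TCR activated cells. It was lower with PI3Kdi (0.333 ± 0.224 FPKM, log2 fold change -2.35) and in CTL without IL-2 (0.147 ± 0.0252 against 4.55 ± 0.1 FPKM, log2 fold change -4.24). Ppp5c was higher after TCR activation (1.62) and lower without IL-2 (-1.14).

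On the list of ERK responsive transcription factors and early genes, 26 were listed in the first table, of which 10 rose and 7 fell after TCR activation. The list was written by name, and ERK activity was not measured in these libraries, so its calls are no readout of ERK. Fosl1, an AP-1 subunit, was left blank in the naïve libraries, read as 0, and was at 6.99 ± 1.55 FPKM after activation, and Ier3 went from 1.21 ± 0.375 to 22.5 ± 5.81 FPKM. With PI3Kdi against TCR 5 of 26 fell and 1 rose. Nr4a3 fell from 40.6 ± 8.90 to 7.34 ± 2.18 FPKM (log2 fold change -2.47), Nr4a2 by -2.11 and Phlda1 by -2.05 on the same scale, and Ets1, a T cell transcription factor, rose from 42.1 ± 3.97 to 107 ± 4.28 FPKM (1.35). In CTL without IL-2, 10 of 25 fell and 2 rose, and the median log2 fold changes of the list were -0.055, -0.15 and -0.82 in the 3 comparisons. The ETS factors Etv4 and Etv5, textbook targets of ERK signalling, went from 3.83 ± 0.905 to 0.05 ± 0.0557 and from 3.40 ± 0.558 to 0.397 ± 0.1 FPKM. Fosl1 (log2 fold change -4.89) and Fos (-3.29) fell as well. With PI3Kdi against TCR none of these was called, with log2 fold changes of -0.11 for Etv4, -0.13 for Etv5, 0.40 for Fosl1 and 0.80 for Fos.

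Of the 14 ERK cascade kinases and scaffolds, Ksr1 (log2 fold change 2.24) and Map3k8 (1.46) rose and Ksr2 (-2.81) fell after TCR activation. With PI3Kdi limma called 0 of 14 (3 at an unadjusted p under 0.05), and without IL-2 0 of 13 (8 at an unadjusted p under 0.05). Without the share of all mRNA at the unadjusted threshold, such counts do not show a shift of the list. Among 21 genes that load or unload Ras, 2 rose and 8 fell after activation, among them the exchange factors Rasgrp2, from 161 ± 4.69 to 4.39 ± 0.771 FPKM, and Rasgrp1 (-3.12), and the Ras inactivators Rasa3 (-4.32) and Rasal3 (-2.96). With PI3Kdi against TCR limma called 0 of the 21 (7 at an unadjusted p under 0.05), and in CTL without IL-2 3 of 20 rose, with Rasa3 at 1.75, and 3 fell, with Rras2 at -1.88. Of 20 mRNA on the list written for JNK and p38 cascade kinases, 2 rose and 8 fell after activation, Map2k3 at 1.79 and Map2k6 at -3.14. That list is wider than its name, since it also holds Tab1, Tab2 and Map3k14. Map3k5 rose with PI3Kdi (1.08), and Map2k6 (1.88), Map3k12 (1.38) and Map3k14 (1.05) rose without IL-2.

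Among 10 kinases downstream of ERK and p38, Mapkapk2 rose after activation (1.37), and Rps6ka2 (-1.90) and Rps6ka5 (-1.39) fell. With PI3Kdi limma called 0 of 10 (4 at an unadjusted p under 0.05), and without IL-2 Mknk2 (1.01) and Rps6ka5 (1.00) rose while Mapkapk2 (-1.22) fell. Of 8 partners of Sprouty and Spred proteins, Siah2 (1.72) and Kit (1.53) rose and Cbl (-1.46) and Tesk1 (-1.13) fell after activation. The receptor tyrosine kinases Kit and Fgfr1 rose with PI3Kdi, by 1.28 and 1.43, and in CTL without IL-2, by 2.73 and 2.51, from levels of 0.6 FPKM or less in each case. Siah2, a ubiquitin ligase, fell without IL-2 (-1.45). The values in the last 2 paragraphs are log2 fold changes unless a level is named.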

How the data were processed

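RNA sequencing libraries of P14 CD8+ T cells and CTL were grouped by the titles of the deposited labels, 5 groups of 3 replicates. For replicates 2 and 3 of CTL with IL-2 the treatment field gives a different interleukin, and the title was used. The authors deposited FPKM in 2 tables. By their methods, reads were aligned to mm10 with STAR 2.5.2b and counted per gene with Subread 1.5.1, and the authors used edgeR to filter, to scale by TMM and to divide by exon length. The same steps were assumed for the CTL table. Deposited values have 2 decimals, and 1039 blank cells of the first table were read as 0. Depth per library is unknown: a search for whole-read steps in the low values gave a regularity of 0.14 to 0.60, where whole reads give 1.

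The values log2(FPKM + 0.1) were fitted with limma 3.58.1 in R 4.3.3 with an intensity trend, the 9 libraries of the first table in one fit and the 6 CTL libraries in another, and the Benjamini-Hochberg adjustment of p ran over all mRNA of a table. The count based test of the study could not be repeated on FPKM. Data were simulated with independent noise and changes of 2 up or down on the log2 scale, in mRNA with a mean FPKM above 1. There 193 of 200 changed mRNA were recovered for PI3Kdi against TCR, with 2 false calls, and 200 of 200 in CTL, with 2 false calls. Smaller changes, near the fold limit, were not simulated. By the methods each pool of the first table was split between its groups, but whether equal numbers mark the same pool is not stated. The main fits used the group alone, with no block for the replicate number. Deviations of same-numbered libraries from their group means correlated for PI3Kdi and TCR (r of 0.27, 0.20 and 0.51) and for CTL (0.12, 0.17 and 0.26). On that basis numbers were taken to pair those libraries. Naïve libraries showed no such correlation (-0.14, 0.23 and -0.18 with TCR). These r are across mRNA. Where a pairing is not given by the labels, p-values measure the spread between these samples only.

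The 10 genes and the pathway lists were chosen with earlier results of these data known. All 10 are named. From each list, at most 4 mRNA per comparison were eligible for naming, those called with the largest log2 fold change and the same direction in all 3 same-numbered pairs, and the 3 mRNA nearest to Dusp2 and Dusp4 were those with the smallest root mean square difference. A few list mRNA are also given in a comparison where they were not called. Promoter sequences are from RefSeq on GRCm38.p6, and gene models from RefSeq and GENCODE M21. Python 3.11.15, pandas 2.3.3, numpy 2.4.6 and matplotlib 3.10.9 were used.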

Additional observations from a re-analysis of the deposited data

How the results depend on the processing

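Over 37 pairs of a gene and a comparison, 396 log2 fold changes were recomputed under other settings, and 387 kept their direction and their side of the limits for a call. With the replicate number as a block, the members called were 7 after TCR activation, 2 with PI3Kdi against TCR, 6 with PI3Kdi against naïve and 8 in CTL, and the block changed no call. For PI3Kdi against TCR, leaving out each replicate gave 1 to 2 calls, and a fold limit of 1.5 or none gave 4, the added genes being Dusp6 and Spred2. The shares of all mRNA given above hold for the 2-fold limit, and those at the looser limits were not counted. The log2 fold change of Dusp10 with PI3Kdi against TCR, which was not called, turned to 0.022 with equal summed FPKM and ran from -0.31 to 0.076 over the fits that left out a replicate, positive without replicate 1 (0.063) or 2. Spred1 with PI3Kdi against naïve reached the fold limit under median scaling (1.00) and without replicate 1 (1.07). Scaling to equal summed FPKM moved the median of all mRNA by 0.12 in CTL. The share of higher among called mRNA there was 60.2%, against 50.7% with the deposited scaling. Among values past the p threshold but under 2-fold, the highest adjusted p over the settings was 0.30 for Spry2 and 0.089 for Dusp2 in CTL, and 0.060 for Dusp2 with PI3Kdi against naïve. The causes were not tested. The unknown depth limits mRNA under 1 FPKM most.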
